A study of Ovis aries with 16 samples.

Results

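Liver was compared with muscle inside the same female sheep, in the 4 ewes of the series that had been exposed to testosterone before birth (prenatal T; ewes 48, 185, 233 and 255). Their 4 liver and 4 muscle libraries are 8 of the 16 libraries of the series, chosen by the treatment and tissue labels, and each liver library was paired with the muscle library that carries the same ewe number. The other 8 libraries are liver and muscle of 4 control ewes and enter only where a tissue difference was compared between treatments. All animals are female Ovis aries, the RNA was total RNA extracted with Trizol, and the libraries were made with a NEBNext small RNA kit. The labels give neither the dose and timing of the testosterone, nor the age of the ewes, nor which muscle was taken. Each ewe is a separate animal, so n counts ewes.

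The reads had been counted in 4 classes of RNA. MicroRNAs (miRNAs) are short guides that lead Argonaute proteins to messenger RNAs and lower their translation or stability. Small nucleolar RNAs (snoRNAs) guide chemical modification of ribosomal RNA and usually lie in introns of genes for ribosomal, translation or nucleolar proteins, small nuclear RNAs (snRNAs) are the RNA cores of the spliceosome, and long non-coding RNAs (lncRNAs) include transcripts from which miRNAs and snoRNAs are cut. Liver is mainly hepatocytes, with bile duct, vessel and blood cells, and muscle is mainly multinucleate fibres, so each class was examined for RNAs known to mark those cells.

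The libraries held 250251 to 887739 reads over the 4 classes in liver and 239871 to 1819374 in muscle, of which snoRNAs took 2180 to 13951 and snRNAs 200 to 1438. Values below are scaled reads: whole reads recovered from the deposited values, divided by a factor per library and class (median of ratios over the 8 libraries). A log2 difference is muscle minus liver on log2(scaled reads + 1), and "called" means an adjusted p under 0.05 in limma with the ewe as a block. Its standard error (SE) is the moderated one of that fit. It is drawn toward a variance trend over the features of the class, so it is not the spread of the ewes alone. The library numbers in the labels fall into 2 sets, 49 to 63 and over 100. The livers of ewes 185, 233 and 255 and the muscle of ewe 255 carry high numbers, and the liver of ewe 48 and the muscles of ewes 48, 185 and 233 carry low ones. Both tissues of ewe 48 therefore carry low numbers and both of ewe 255 high ones, while in ewes 185 and 233 the tissues differ in their set as well.

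The cell markers followed the tissue labels in all 8 libraries. Of 5 miRNAs listed as hepatocyte markers, MIR194 and MIR148A were in the table and together took 9.97% to 14.6% of liver miRNA reads against 0.186% to 0.323% in muscle. Of 6 listed for muscle fibres, MIR133 was in the table, at 0.0290% to 0.0470% of miRNA reads in liver and 37.2% to 56.4% in muscle. MIR200A, MIR200B and MIR200C, which mark epithelia such as bile duct, summed to 0.408% to 0.821% in liver and at most 0.00264% in muscle. MIR143 and MIR199A, of vessels and stroma, summed to 7.61% to 11.4% in liver and 1.65% to 2.58% in muscle. MIR150, a lymphocyte miRNA, was the 1 blood marker of 5 in the table and took 0.0878% to 0.155% in liver and 0.189% to 0.531% in muscle. These are shares of all miRNA reads, so the large MIR133 share of muscle lowers every other share there. The scaled differences of MIR143 and MIR199A, given below, are smaller than their shares alone would show. In bulk tissue, fewer cells of a type and less RNA per cell cannot be told apart.

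Liver reads were mostly of miRNAs, whereas muscle reads were split almost evenly between miRNAs and lncRNAs. In liver, miRNAs took 82.9% ± 1.51 (SD, n = 4) of the reads of the 4 classes and lncRNAs 15.0% ± 0.836. In muscle, miRNAs took 48.2% ± 0.710 and lncRNAs 51.1% ± 0.418, so the lncRNA share differed by 36.1 percentage points and the miRNA share by -34.7. The shift had the same direction in all 4 ewes and the tissues did not overlap, with muscle miRNA shares of 47.3% to 48.9% against 81.6% to 85.1% in liver. A sign-flip permutation test over 4 ewes, which keeps the pairing, gave the smallest p it can, 0.125, for each of the 4 classes. The exact unpaired permutation test over 70 assignments gave p = 0.0286 for miRNAs and for lncRNAs (adjusted 0.0381 over the 4). That unpaired test treats the 2 tissues of an ewe as if they came from separate animals. Without the feature with most reads in each class, among them MIR133 and the lncRNA LOC105604459, the lncRNA difference was 35.6 points. That step takes out 50.3% of muscle miRNA reads and 50.9% of muscle lncRNA reads together, so it could hardly move the miRNA and lncRNA shares. LOC105603743, with 40.5% of muscle lncRNA reads, stayed in. How far the lncRNA share of muscle rests on these loci was not tested.

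**Figure D1:**
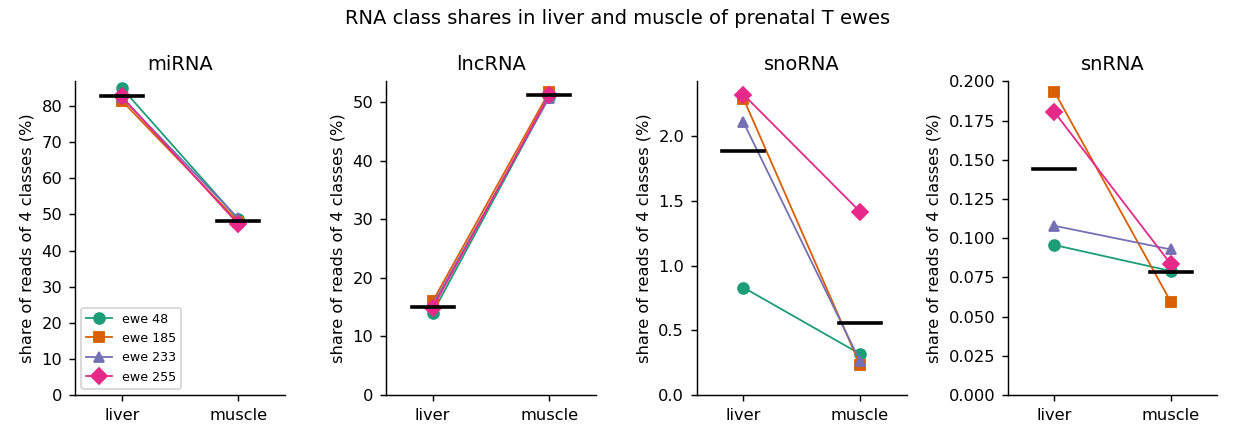
Share of the reads of the 4 RNA classes (percent, y axis of each panel from 0) in liver and muscle, with a line joining the tissues of each ewe and a black bar at the mean of 4 ewes. The miRNA share was 82.9% in liver and 48.2% in muscle on average, and the snoRNA share was near 2% in 3 livers but lower in the liver of ewe 48.

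The snoRNA and snRNA shares were lower in muscle in 4 of 4 ewes, but by amounts that varied. The snoRNA share in liver was 0.830% in ewe 48, 2.29% in ewe 185, 2.11% in ewe 233 and 2.32% in ewe 255. In muscle it was 0.317%, 0.234%, 0.262% and 1.42% in the same order. The liver of ewe 48 stood below the muscle of ewe 255, and within each tissue the libraries with high numbers had the higher snoRNA share. Within ewes 48 and 255, whose tissues match in library number, the mean difference was -0.709 points against -1.33 over all 4. The exact unpaired permutation p for snoRNAs was 0.0571. The snRNA share was 0.144% ± 0.0498 in liver and 0.0786% ± 0.0141 in muscle. That difference changed sign, to 0.0152 points, without the most-read feature of each class, and the snoRNA difference went to -0.868. The step removed 50.3% of muscle miRNA reads and 50.9% of muscle lncRNA reads, against 0.0405% and 0.355% in liver. The total under the muscle shares thus shrank far more than that of liver, which by itself raises small shares in muscle.

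Of 105 miRNAs, 75 averaged at least 5 scaled reads and were tested, and 50 were called (66.7%): 21 higher in muscle (28% of those tested) and 29 higher in liver (38.7%). For 46 of the 75 the 2 tissues did not overlap, and 56 had the same sign in all 4 ewes. The median difference over the 75 was -0.20. The zero point depended on the scale: scaled to all miRNA reads, of which MIR133 took 50.3% in muscle, the median was -1.50, and scaled to the reads of the 4 classes it was -2.29. The 29 miRNAs higher in liver kept that direction under both of those scales, whereas of the 21 higher in muscle 9 kept it under the first and 4 under the second. Of the 21, MIR133 and MIR10B were called higher in muscle under median-of-ratios, trimmed-mean (TMM), miRNA-total and 4-class scaling alike, and the other 19 lost that call under at least 1 of them.

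MIR133, which is made in heart and skeletal muscle and is a standard marker of their fibres, had the largest difference of any miRNA. Liver held 103, 79.9, 110 and 113.3 scaled reads in ewes 48, 185, 233 and 255, and muscle held 380746, 363378, 383423 and 170383. The muscle of ewe 255 was the lowest of the 4 muscles, and every muscle was far above every liver. The log2 difference was 11.57 (SE 0.24, limma adjusted p = 1.87e-10), a 3202-fold ratio of means. MIR26A, the most-read liver miRNA, was not called (0.22, SE 0.10, limma adjusted p = 0.0758), but differed by -1.08 when scaled to all miRNA reads. As a ratio of reads, which no scaling alters, MIR133 had 0.00260 reads per MIR26A read in liver and 6.96 ± 1.74 in muscle.

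MIR10B, a miRNA that lies within HOXD4 in the HOXD cluster (RefSeq gene table of ARS-UI_Ramb_v3.0), was the second muscle-high miRNA under all 4 scales. Liver held 135, 81.0, 40.7 and 69.2 scaled reads and muscle 1854, 1914, 2060 and 1401 in ewes 48, 185, 233 and 255. Every muscle was above every liver, and the difference was 4.56 (SE 0.29, limma adjusted p = 8.54e-07). Its close relative MIR10A, which lies within HOXB3 in the HOXB cluster, differed by 0.20 (SE 0.20, limma adjusted p = 0.379). MIR10B had 0.290 ± 0.0759 reads per MIR10A read in liver and 6.01 ± 1.61 in muscle, higher in muscle in 4 of 4 ewes.

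The miRNAs known as liver-enriched were all higher in liver on every scale. Of 10 listed, 3 were in the table, and all 3 were called, against 38.7% of all tested miRNAs called higher in liver. MIR194, which is abundant in hepatocytes and gut epithelium, had 6292, 8088, 6387 and 6102 scaled reads in the 4 livers and 82.6, 65.4, 92.1 and 92.9 in the 4 muscles. Every liver was far above every muscle, by -6.32 (SE 0.21, limma adjusted p = 7.92e-09). MIR148A, which acts on LDL receptor and ABCA1 messages in hepatocytes, took 9.41% of liver miRNA reads and 0.257% in muscle, a difference of -3.90 (SE 0.21). MIR152, which shares the miR-148 family with it, lies in COPZ2 and fell by 2.99 on the log2 scale (SE 0.20) from liver to muscle.

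The miR-200 family, which holds epithelial cells in their state by repressing ZEB1 and ZEB2, was found mainly in liver in these 8 libraries. MIR200B had 1522, 856, 845 and 1164 scaled reads in liver and 4.76, 4.56, 7.81 and 4.04 in muscle. Every muscle was far below every liver, and the difference was -7.44 (SE 0.30, limma adjusted p = 2.51e-08). MIR200A had 2671 reads over the livers and 2 over the muscles, a ratio of 517 with a counting interval of 143 to 4271 at 95%. MIR200C differed by -4.12 (SE 0.46). All 3 members in the table were called higher in liver on each of the 4 scales, against 38.7% of all tested miRNAs under median-of-ratios scaling.

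**Figure D2:**
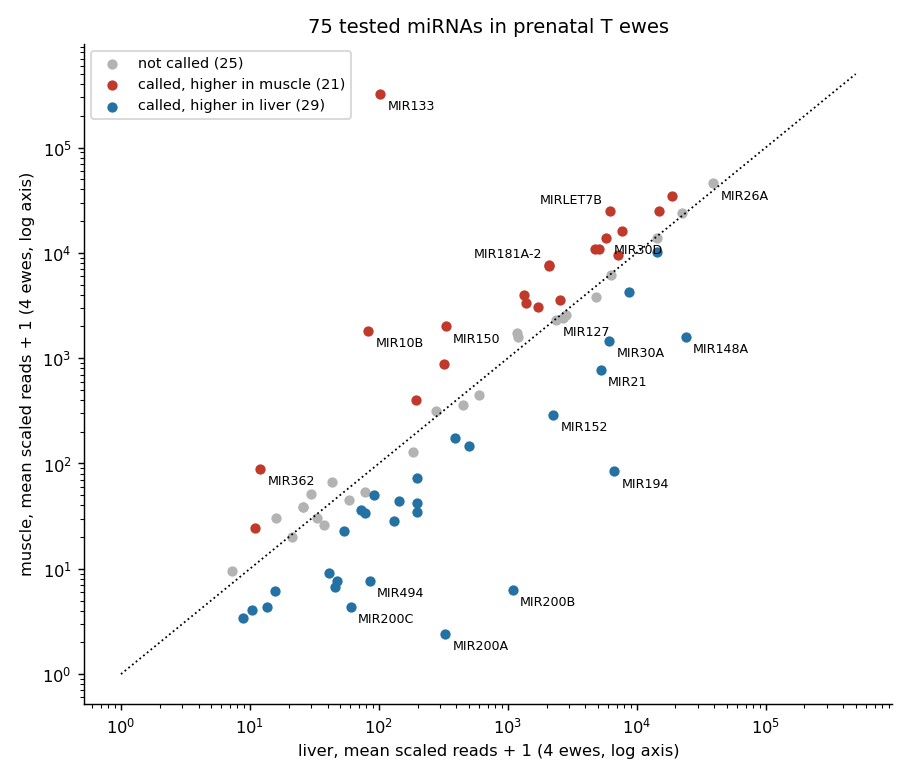
Mean scaled reads + 1 of the 75 tested miRNAs in liver (x) and muscle (y) of 4 ewes, both on log axes, with equality dotted and calls coloured under median-of-ratios scaling. MIR133 lies alone above the line at 101 against 324483, and MIR194, MIR200A and MIR200B lie farthest below it. Of the 21 red points, 12 change side when scaled to all miRNA reads.

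Stromal and endothelial miRNAs had 3 of 6 listed members in the table. All 3 were called higher in liver, against 38.7% of all tested miRNAs. MIR21, which is raised in fibrosis and inflammation, had 3454 to 6699 scaled reads in liver and 622 to 893 in muscle (-2.73, SE 0.22, limma adjusted p = 3.27e-06). MIR199A, a miRNA of mesenchymal cells, fell by 1.10 on the log2 scale (SE 0.23) from liver to muscle. MIR143, of smooth muscle, differed by -0.55 (SE 0.21, limma adjusted p = 0.0417). That last call rested on ewe 255: without it the difference was -0.15 and was not called. Under TMM scaling of the 4 ewes MIR143 kept its direction but was not called either. In the opposite direction, MIR150 was higher in muscle in 4 of 4 ewes (2.57, SE 0.29, limma adjusted p = 3.56e-05), with 1284 to 2736 scaled reads against 227 to 427. When scaled to the reads of the 4 classes MIR150 differed by 0.49 and was not called.

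Of the let-7 family, which restrains growth genes such as LIN28 and HMGA2, 7 members were tested and 6 were called higher in muscle, against 28% of all tested miRNAs. Of these 6, 4 turn lower when scaled to all miRNA reads (MIRLET7A, MIRLET7C, MIRLET7G, MIRLET7I) and all 6 when scaled to the reads of the 4 classes. What no scale alters is their ratio to each other. MIRLET7B had 0.401, 0.368, 0.382 and 0.611 reads per MIRLET7F read in the livers of ewes 48, 185, 233 and 255, and 1.49, 1.58, 1.65 and 2.62 in their muscles. The ratio was higher in every muscle than in every liver, by 2.05 ± 0.108 (log2, SD, n = 4). This pair and the others given as read ratios were chosen after their values were seen, and carry no test.

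In the miR-30 family MIR30A was called higher in liver (-2.08, SE 0.15, limma adjusted p = 2.02e-06) on every scale, while MIR30B, MIR30C and MIR30D were called higher in muscle by 1.02, 1.19 and 1.23 and turned to -0.27, -0.11 and -0.07 when scaled to all miRNA reads. Reads of MIR30D per read of MIR30A were 0.897, 0.929, 0.984 and 1.02 in the 4 livers and 8.56, 10.2, 11.0 and 8.49 in the 4 muscles. The liver ratios sat close to equality and every muscle was above every liver. The members share their seed and act on overlapping sets of messages.

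Of the other groups, MIR181A-1 and MIR181A-2, near-identical copies that act in lymphocyte signalling and in myoblasts, were higher in muscle by 1.83 and 1.86 (SE 0.15 each) but were -0.25 and -0.22 when scaled to the reads of the 4 classes. Reads of such copies may have been split or shared by the counting. Neither member of the miR-26 family and none of the 3 miR-29 entries was called, against 66.7% of all tested miRNAs called in either direction. MIR29B-1 and MIR29B-2 had the same values in every library, so they count as 1 profile. In the miR-17/92 group MIR106B and MIR25, which lie in one cluster, were called higher in muscle, by 1.48 and 0.48, whereas MIR17 and MIR106A were called higher in liver, by -1.09 and -1.98. When scaled to the reads of the 4 classes MIR106B turned to -0.59 and MIR25 to -1.60. MIR362, an X-linked miRNA inside CLCN5, had 9.05 to 13.3 scaled reads in liver and 37.3 to 147 in muscle (2.71, SE 0.39, limma adjusted p = 0.000174), and its difference of 0.72 when scaled to the 4 classes was not called.

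The imprinted DLK1-DIO3 cluster, one of the largest mammalian miRNA clusters, read from the maternal chromosome, had 53 of its 57 listed members in the table. Of the 25 that were tested, 13 were called higher in liver (52%, against 38.7% of all miRNAs), 1 higher in muscle (MIR433, by 1.05, which turns lower when scaled to all miRNA reads) and 11 were not called. The median difference was -1.26 against -0.20 over all miRNAs. MIR379 had 553, 359, 536 and 563 scaled reads in liver and 125, 154, 142 and 158 in muscle. The tissues were well apart (-1.77, SE 0.23, limma adjusted p = 9.32e-05). MIR494 differed by -3.94 (SE 0.64), with 47.7 to 102 scaled reads against 0 to 12.7. The most abundant member, MIR127, which is antisense to RTL1, was not called: it had 1663 to 2956 scaled reads in liver and 1895 to 2702 in muscle (0.00, SE 0.19, limma adjusted p = 0.984). The values of MIR127 overlapped between the tissues. The lncRNA model LOC105606646, which overlaps 22 of the 25 tested members but not MIR127, MIR433 or MIR493, was called higher in liver (-1.14, SE 0.39, limma adjusted p = 0.0279).

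Among lncRNAs, 119 of 2973 were tested and 66 called (55.5%), 28 higher in muscle (23.5%) and 38 higher in liver (31.9%), and for 52 the tissues did not overlap. As for miRNAs, the liver-high set kept its direction under every scale. Of the 28 higher in muscle, 9 kept it when scaled to all lncRNA reads, where 6 others fell below the filter and were not tested. When scaled to the 4 classes 24 kept it and 3 were not tested. These are short reads counted over long gene models, so a value may stand for 1 short RNA cut from the locus.

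Muscle lncRNA reads came mostly from 2 loci. LOC105603743 had 29.1, 35.5, 26.4 and 23.5 scaled reads in the livers of ewes 48, 185, 233 and 255 and 155408, 215847, 188772 and 144975 in their muscles. It took 40.5% of muscle lncRNA reads, and the difference of 12.54 (SE 0.23, limma adjusted p = 1.1e-13) was the largest among lncRNAs and nearly the same in each ewe. LOC105604459, which lies within MIB1 in the RefSeq gene table, took 50.9% and differed by 9.82 (SE 0.26). Its reads tracked those of MIR133, whose own entry lies elsewhere, between SLCO4A1 and GATA5: per MIR133 read it had 1.06 to 1.10 reads in muscle and 1.38 to 1.73 in liver. Whether the same reads were counted in both tables was not tested.

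Some less abundant lncRNAs were read almost only in muscle. LOC114117239 had no read in any liver and 196 over the 4 muscles, at least 70.2-fold higher against a floor of 3 reads over the livers. LOC114118294 had 1 read over the livers and 129 over the muscles, a ratio of 139 (24.5 to 5520, 95% counting interval). LOC105603956, which lies between CEP295 and DEUP1, had 5.46 to 11.6 scaled reads in liver and 139 to 208 in muscle (4.29, SE 0.39, limma adjusted p = 1.78e-06). All 3 kept their calls under the 4 scales.

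In liver the most-read lncRNA was LOC114110111, with 31906, 28337, 23088 and 22444 scaled reads against 110, 140, 165 and 127 in muscle. It took 37.8% of liver lncRNA reads and differed by -7.60 (SE 0.26, limma adjusted p = 6.29e-11), a 195-fold ratio of means. LOC114110055, a neighbour of PLSCR4, had 588 reads over the livers and none in muscle, at least 182-fold lower there. LOC105603426 was nearly constant in liver, at 158, 153, 153 and 151 scaled reads, and reached at most 5.96 in muscle (-5.41, SE 0.48). LOC114114068 differed by -4.89 (SE 0.37) and LOC101112520, between ZNF451 and BEND6, by -4.80 (SE 0.48).

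**Figure D3:**
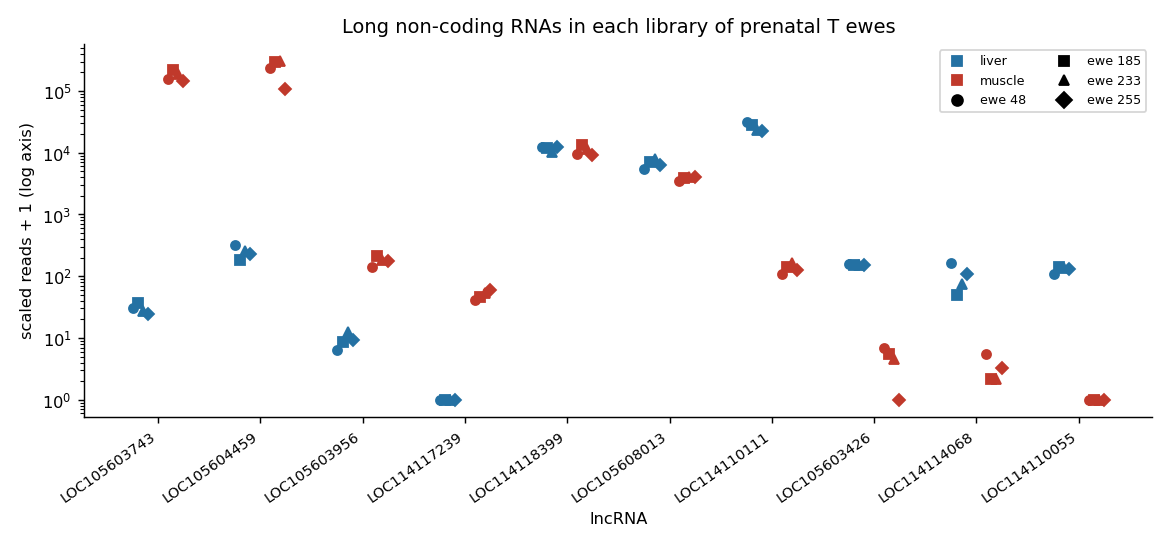
Scaled reads + 1 (log axis) of 10 lncRNAs in each library, liver in blue and muscle in red, with a marker shape per ewe. LOC105603743 and LOC105604459 sit far higher in muscle than in liver, LOC114110111 is the reverse, and LOC114118399 overlaps. The 5 lncRNAs called higher in liver and LOC105603743, LOC105604459, LOC105603956 and LOC114117239 kept their side under all 4 scales.

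Some lncRNA entries repeated the read counts of another class. LOC114118399, the second most-read lncRNA of liver, had the same number of reads as MIR125B in each of the 8 libraries, 101758 in all. On the lncRNA scale these counts were 10357 to 12448 in liver and 9112 to 13525 in muscle and were not called (-0.13, SE 0.17, limma adjusted p = 0.551), while on the miRNA scale they were called higher in muscle (1.08). The zero points of the 2 classes were thus 1.20 apart on the log2 scale for this pair. LOC114116957, the lncRNA model that holds the most-read snoRNA LOC114117067, had 5250 reads against 5245 of the snoRNA, and differed by -0.54 where the snoRNA differed by 0.33, neither called. These were the 2 pairs of a tested lncRNA and a tested feature of another class with at least 300 reads that stayed within 1% of each other in every library, a search added after the match was noticed. Without the 2 lncRNAs the lncRNA share differed by 37.8 points between the tissues and the miRNA share by -36.4.

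Where a lncRNA model overlaps a miRNA gene, read ratios between the 2 show how they compare free of those scales. LOC105602212, which overlaps MIR125B, was called higher in liver (-1.40, SE 0.28, limma adjusted p = 0.00141) while MIR125B was called higher in muscle (1.08, SE 0.12), a direction that turns to -0.22 when scaled to all miRNA reads. Free of such scaling, LOC105602212 had 0.366 to 0.633 reads per MIR125B read in liver and 0.122 to 0.279 in muscle. Those ranges did not overlap. LOC105611269, inside NR6A1, had 1.07 to 1.12 reads per MIR181A-2 read in liver and 1.04 to 1.06 in muscle, and LOC105605445 had 1.20 to 1.23 and 1.19 to 1.28 per MIR221 read. At those 2 loci the lncRNA table held slightly more reads than the miRNA table in both tissues.

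Of 694 snoRNAs, 135 were tested and 20 called (14.8%), 6 higher in muscle (4.44%) and 14 higher in liver (10.4%). The clearest was LOC114111821, inside DKC1, whose protein dyskerin is itself the pseudouridine synthase of H/ACA snoRNA particles. It had 4.51, 2.25, 2.39 and 5.36 scaled reads in the livers of ewes 48, 185, 233 and 255 and 102, 164, 132 and 51.9 in their muscles. Every muscle was above every liver, and the difference was 4.56 (SE 0.50, limma adjusted p = 0.00334). LOC114114261, inside RNF149, differed by 2.93 (SE 0.38, limma adjusted p = 0.00492). LOC114111821 and LOC114114261 were called higher in muscle under all 4 scales. The 2 most-read snoRNAs of both tissues were not called: LOC114117067, with 323 to 597 scaled reads in liver and 460 to 1312 in muscle, and LOC114111353 inside EIF4G1, with 243 to 332 and 254 to 309.

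Among the 14 liver-high snoRNAs, LOC114117376 had 78.6, 36.5, 48.9 and 47.7 scaled reads in liver and 5.56, 3.61, 5.37 and 4.32 in muscle (-3.20, SE 0.32, limma adjusted p = 0.00334). LOC114117421, the third most-read snoRNA of liver, had 236 to 288 against 34.7 to 77.7 (-2.38, SE 0.29, limma adjusted p = 0.00423). The groups did not overlap for either.

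Other snoRNA differences followed the library numbers. For each snoRNA the mean difference in ewes 185 and 233 was set against that in ewes 48 and 255, and 30 of 135 snoRNAs had means over 2 apart on the log2 scale, 25 of them lower in ewes 185 and 233. The same gap was reached by 13 of 119 lncRNAs and by none of 75 miRNAs and none of 25 snRNAs. LOC114113382, inside the nucleolin gene NCL, had 12.2 scaled reads in the liver of ewe 48 and 245, 185 and 234 in the other livers. In muscle it had 8.34, 9.03 and 5.37 in ewes 48, 185 and 233 and 238 in ewe 255. The 4 libraries with high numbers held 185 to 245 whatever the tissue, and the 4 with low numbers 5.37 to 12.2. Its tissue difference was thus -4.62 and -4.87 in ewes 185 and 233 but -0.50 and 0.02 in ewes 48 and 255.

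The gap that chose those 25 snoRNAs is itself the contrast of the library sets, so their values in these 8 libraries are a description. The control livers played no part in choosing them: the liver of ewe 98, which has a low number, was below the other 3 control livers in 24 of the 25 (96%), against 48.1% of all 135. For LOC114113382 the control livers held 7.95 in ewe 98 and 227, 262 and 287 in ewes 131, 132 and 201, on the scale of all 16 libraries. LOC114115928, inside RPL4, had 15.0 in ewe 98 and 185 to 246 in the others. By gene name, 9 of the 25 (36%) lie inside genes of ribosomal, translation or nucleolar proteins, such as NOP56, RPS12 and EIF4A2, against 32.6% of all tested snoRNAs. Another 9 lie inside other protein-coding genes, such as SF3B3 and ATP5F1B. With the set of numbers as a term beside tissue and ewe, limma called 25 snoRNAs higher in the high-number libraries (18.5%) and 4 lower (2.96%), 4 and 6 lncRNAs (3.36% and 5.04%), and no miRNA or snRNA (11 miRNAs and 0 snRNAs at p under 0.05, by limma alone). What distinguished the 2 sets is not given in the sources used here.

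**Figure D4:**
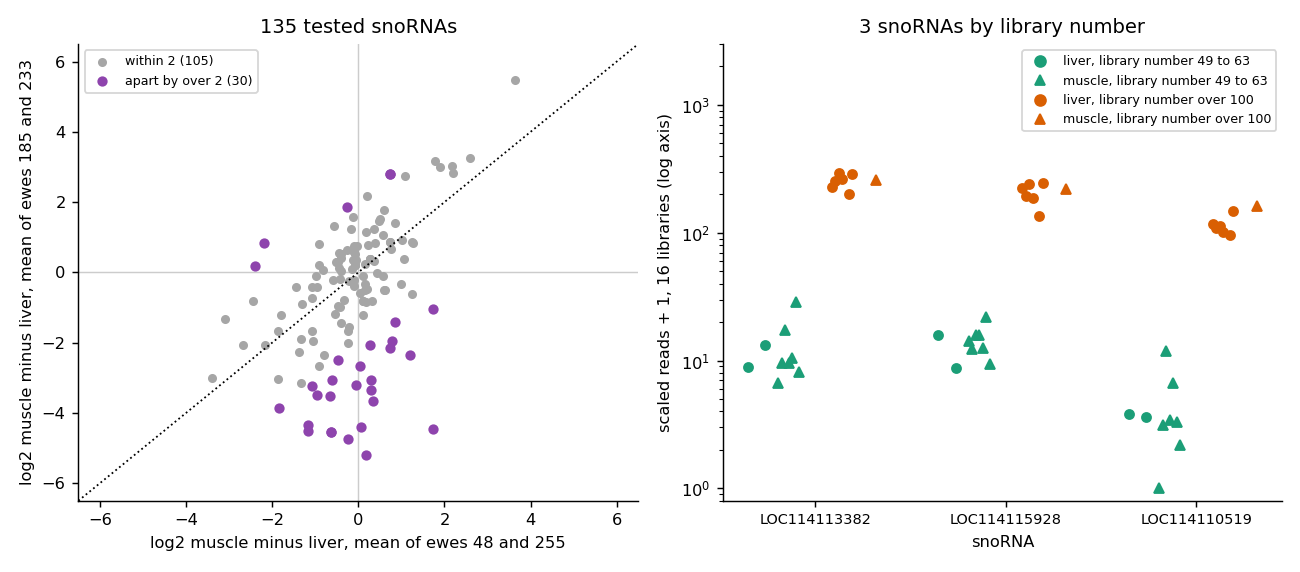
Left, log2 muscle minus liver of the 135 tested snoRNAs as the mean of ewes 48 and 255 (x) and of ewes 185 and 233 (y), with equality dotted and the 30 that lie over 2 apart in purple. Right, scaled reads + 1 (log axis) of 3 snoRNAs in all 16 libraries, coloured by library number with a shape per tissue. For LOC114113382 every library numbered over 100 sits above every library numbered 49 to 63, in liver and in muscle.

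Of those 25 snoRNAs 4 were called higher in liver (16%). They had been chosen by the tissue differences of these same libraries. Their share therefore cannot be compared with the 10.4% of all tested snoRNAs. LOC114116284, inside RPS12, had 7.08, 117.5, 90.6 and 62.6 scaled reads in liver and 2.08, 3.61, 3.58 and 32.4 in muscle. The liver of ewe 48 lay below the muscle of ewe 255, so the tissues overlapped. Its difference was -2.83 (SE 0.72, limma adjusted p = 0.0447) over all ewes and -1.16, not called, with the set of numbers as a term. LOC114116761, inside RPL21, went from -2.84 to -1.84 and stayed called. The lncRNA LOC106990385 had 72.8 scaled reads in the liver of ewe 48 and 2409 to 3221 in the others, against 37.7 to 50.5 in 3 muscles and 1599 in that of ewe 255, and its difference of -3.38 became -0.80 with that term (limma adjusted p = 0.0347). LOC114111821 and LOC114117376 stood at 3.57 and -3.52 within ewes 48 and 255 alone.

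No snRNA of 25 tested (0%) was called by limma, with 12 at an unadjusted p under 0.05, and edgeR called 0 while DESeq2 called 8 and limma without the ewe as a block 13. Most of the tested entries are near-identical copies that may share reads, and 8 of them fall in 3 groups with the same values in every library. The most-read entry, LOC114110196 between WDR74 and SLC3A2, had 78.6, 56.0, 66.6 and 30.2 scaled reads in liver and 37.9, 48.7, 43.9 and 47.0 in muscle. The ranges overlapped (-0.30, SE 0.32, limma adjusted p = 0.381).

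The tissue difference of exposed ewes was then set against that of control ewes, which share no library with them. No feature of any class was called in the interaction of tissue and treatment by limma over 16 libraries (0% of those tested in each). That fit tested 76 miRNAs, 144 snoRNAs, 28 snRNAs and nearly as many lncRNAs as the 119 tested in the 8 libraries. Of these, 3 miRNAs, 5 snoRNAs, 0 snRNAs and 7 lncRNAs had an unadjusted p under 0.05. By chance a share of about 0.05 of the tested features would fall there. The edgeR interaction called 0 in each class and DESeq2 called 0, 0, 0 and 2. The tissue differences of the 2 treatments came from that same limma fit over 16 libraries, so their calls are not independent of each other. Of 76 miRNAs tested, 53 were called in control and 53 in exposed ewes, with 46 called in both in the same direction. Of 144 snoRNAs, 52 were called in control and 29 in exposed ewes, with 24 in both alike. Of 28 snRNAs, 8 and 0 were called. Among the lncRNAs tested, 70 were called in each treatment and 60 in both alike. None was called in opposite directions. MIR133 differed by 11.54 in exposed and 10.93 in control ewes, MIR194 by -6.35 and -5.92, and MIR200B by -7.46 and -7.64.

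**Figure D5:**
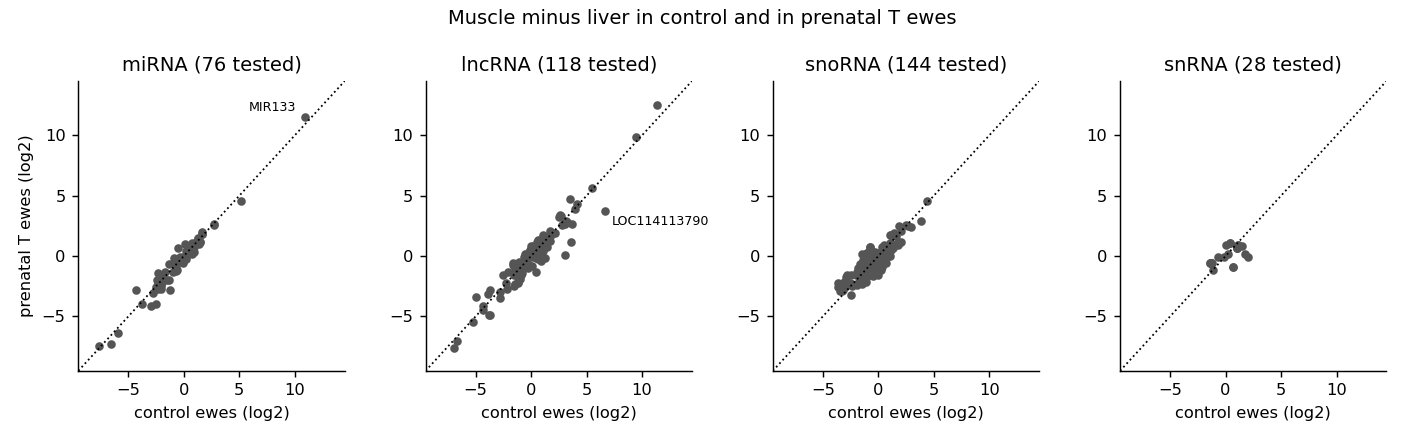
Log2 muscle minus liver of each tested feature in control ewes (x) and prenatal T ewes (y), 4 ewes each, with equality dotted and 1 panel per RNA class. The points follow the line for miRNAs and lncRNAs, and LOC114113790 lies below it at 6.66 in control and 3.74 in exposed ewes.

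The lncRNA LOC114113790, which lies between HES1 and OPA1, had the smallest interaction p. Muscle exceeded liver by 6.66 in control ewes and 3.74 in exposed ewes, a difference of -2.92 (SE 0.68, limma adjusted p = 0.156), with 3819 mean scaled reads in control muscle and 864 in exposed muscle. In exposed ewes it had 52.1, 120, 26.4 and 57.7 scaled reads in liver and 944, 1393, 607 and 398 in muscle, on the scale of the 8 libraries. LOC114112617 differed by 3.62 in control and 1.20 in exposed ewes (limma adjusted p = 0.208), and these 2 were the calls of DESeq2 (adjusted p = 0.00792 and 0.0327). MIR374B had the smallest p among miRNAs, with -1.24 in control and -2.78 in exposed ewes (limma adjusted p = 0.684). The tissues differ in their set of library numbers in 2 of 4 exposed and 3 of 4 control ewes, and with the set as a covariate limma again called 0 in each class.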

How the data were processed

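Small RNA libraries of liver and muscle were tabulated per miRNA, snoRNA, snRNA and lncRNA. Per the submitters' processing notes, cutadapt 3.2, featureCounts 1.6.1 and STAR 2.6.0c were among the tools; the genome build and the read filters are stated nowhere in the sources used here. What the authors deposited is a signal per library: its reads over a size factor, set within each tissue. Dividing each column by its smallest value above 0 gave whole reads for 100% of 718 miRNA, 2209 snoRNA, 521 snRNA and 5200 lncRNA values above 0 (tolerance 0.001), and these whole reads were rescaled over the 8 libraries because the deposited scales of the tissues are separate.

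Features with a mean of at least 5 scaled reads were tested with limma 3.58.1 (R 4.3.3, variance trend, log2(scaled reads + 1), ewe as a block), with Benjamini-Hochberg adjustment within each class. The fold changes therefore understate those of low features. The interaction of tissue and treatment was fitted over all 16 libraries. edgeR 4.0.16 and DESeq2 1.42.0 on the recovered reads were alternatives, with other pseudocounts, filters, scales, the library numbers as a covariate, and each ewe left out. The code was tested on simulated data. Same-numbered libraries come from the same ewe per the labels. The deviations from the tissue means correlated between the tissues of an ewe by 0.208, 0.0897, 0.0485 and 0.403 for miRNAs and by 0.607, -0.193, -0.237 and 0.674 for snoRNAs (ewes 48, 185, 233, 255). For lncRNAs they were 0.482, -0.141, -0.0619 and 0.357, and for snRNAs -0.377, -0.117, -0.598 and -0.240. Except for snRNAs, the higher values belong to ewes 48 and 255, whose tissues match in their set of library numbers. A shared ewe and a shared set cannot be told apart in ewes 48 and 255.

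The comparison, its members and the lists were chosen with earlier results of these data known. Named features were, per class, the called ones with the same direction in 4 ewes and a mean of at least 20 scaled reads in the higher tissue that had the largest differences (6 miRNAs, 3 snoRNAs, 2 snRNAs and 5 lncRNAs per direction), the 3 most-read per tissue, and members of the lists with at most 7 measured members. Other features named in the text were chosen after their values were seen. Gene positions come from the RefSeq table of ARS-UI_Ramb_v3.0, which matched 105 of 105 miRNAs, 621 of 694 snoRNAs, 1010 of 1148 snRNAs and 1404 of 2973 lncRNAs, and serve only for names, hosts and neighbours. Shares of reads cover counting error only, since no molecular identifiers are named in the labels. No sequence is printed because the sequence of these RNAs was not used here. Some gene names and the results that need them are not reported here.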

Additional observations from a re-analysis of the deposited data

Results flagged for a closer look

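In 9 of 90 groups of 4 libraries that were examined, 1 library stood apart from the other 3, judged by its gap to the nearest other library as a share of the range of the group, set against the 95% critical value of Dixon's test. Chance flags about 1 in 20 such groups. No explanation was tested.

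Muscle libraries gave 4 of these. MIR133 in the muscle of ewe 255 was the low value, at 170383 scaled reads against 363378 to 383423 in the others, with a gap of 0.906 of the range. The snoRNA LOC114116284, inside RPS12, was high in the muscle of ewe 255 (32.4 against 2.08 to 3.61, gap 0.950). The most-read snoRNA, LOC114117067, was high in the same muscle (1312 against 460 to 568, gap 0.873). The snoRNA share of reads was also high in that muscle, at 1.42% against 0.234% to 0.317% (gap 0.930), and this library is the 1 muscle library with a number in the high set.

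Liver libraries gave 5. MIR194 was high in the liver of ewe 185 (8088 against 6102 to 6387, gap 0.857). MIRLET7A was low in the liver of ewe 48 (12958 against 20180 to 21061 scaled reads, gap 0.891). LOC114117067 was low in the liver of ewe 48 (323 against 580 to 597, gap 0.938), and so was the snoRNA share of reads, at 0.830% against 2.11% to 2.32% (gap 0.857). That library is the 1 liver library of exposed ewes with a number in the low set. LOC114118294 had its 1 liver read in ewe 233, so its gap was the whole range (1).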

How the results depend on the processing

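With the replicate block removed, the class shares were the same (miRNA -34.7, lncRNA 36.1 and snRNA -0.0658 percentage points) but the exact permutation p fell from 0.125, the smallest for 4 pairs, to 0.0286, and the unpaired fits called 47 miRNAs, 18 snoRNAs, 60 lncRNAs and 13 snRNAs against 50, 20, 66 and 0 with the block. Without lncRNAs that overlap a miRNA gene the lncRNA share differed by 37.5 points, without the 2 that repeat the reads of another class (added after seeing the data) it differed by 37.8 and the miRNA share by -36.4, and without the most-read feature of each class the snRNA share differed by 0.0152. Ewes 48 and 255 alone gave 33 miRNAs, 35 snoRNAs, 0 snRNAs and 63 lncRNAs, and the set of library numbers as a covariate gave 32 snoRNAs.

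The count of snoRNAs was 13 at a mean of at least 20 scaled reads, 4 at 5 in each tissue, 31 when scaled to the reads of the class, 102 when scaled to those of the 4 classes and 43 by DESeq2. Filters, scales and sets of ewes also change which features are tested. The counts of calls in this section are therefore not shares of the same features. The count of snRNAs was 3, 7 and 8 under those last 3, and that of lncRNAs was 32, 35 and 131 under the first 3. DESeq2, added after seeing the data, gave 2 lncRNAs in the interaction. The share of muscle-high calls moved from 21 of 50 miRNAs to 7 of 61 when scaled to the class and 2 of 74 when scaled to the 4 classes, from 28 of 66 lncRNAs to 7 of 131 and 15 of 76, and from 6 of 20 snoRNAs to 12 of 31 and 2 of 102. Leaving out 1 ewe gave 45 to 51 miRNAs, 9 to 26 snoRNAs, 0 to 3 snRNAs and 43 to 74 lncRNAs, the lowest without ewe 48 for snoRNAs and lncRNAs, with 11 and 13 snoRNAs without ewes 185 and 233. The interaction stayed at 0 calls in each class without each exposed ewe.

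Scaled to all miRNA reads, the log2 differences turned to -1.08 for MIR26A, -1.18 for MIR99A, -0.37 for MIRLET7A, -0.18 for MIRLET7C, -0.55 for MIRLET7G, -0.89 for MIRLET7I, -0.27 for MIR30B, -0.11 for MIR30C, -0.065 for MIR30D, -0.22 for MIR125B, -1.09 for MIR10A, -0.81 for MIR25, -0.90 for MIR23A, -0.47 for MIR23B and -0.74 for MIR16B. Scaled to the reads of the 4 classes they turned to -0.086 for MIRLET7B, -0.22 for MIR181A-2, -0.25 for MIR181A-1, -1.86 for MIR26A, -1.96 for MIR99A, -1.15 for MIRLET7A, -0.96 for MIRLET7C, -0.51 for MIRLET7D, -1.34 for MIRLET7G, -1.67 for MIRLET7I, -1.05 for MIR30B, -0.89 for MIR30C, -0.85 for MIR30D, -1.45 for MIR29B-1 and MIR29B-2, -1.003 for MIR125B, -1.87 for MIR10A, -0.59 for MIR106B, -1.60 for MIR25, -1.68 for MIR23A, -1.25 for MIR23B, -1.52 for MIR16B and -1.51 for LOC114117661. These scales move every miRNA by construction, by the difference in factors. Of the alternatives of 75 named features, 1215 values kept direction and side of the threshold, 42 newly passed it, 37 no longer passed it and 38 reversed. The shallowest library held 2180 snoRNA reads and 200 snRNA reads; what this depth could detect was not tested.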
